A study of Canis lupus familiaris with 29 samples.

Results

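The 37 genes described here are made by T lymphocytes and natural killer (NK) cells or act on them. They cover the T cell receptor with its CD3 chains, coreceptors and signaling proteins, the granule proteins of killer cells, receptors that drive or brake T cells, and factors of regulatory and cytotoxic T cells. They were picked by what is known of them, with earlier results of these data already known. By name, 35 of the 37 were found in the count table, while CD247 and NKG7 were not found and are not analysed here. T cells read antigen through the T cell receptor, and CD4 and CD8 divide them into helper and cytotoxic classes. Dog neutrophils also carry CD4, so CD4 RNA in dog tissue does not stand for helper T cells alone. CD5 and CD40LG are usually read as T cell genes, and the ligand gene CD274 can be made by many cell types.

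The samples were 29 dog tissues profiled by RNA-seq, 10 normal adrenal medullas (NAMs) from healthy research dogs and 19 pheochromocytomas or paragangliomas (PPGLs) from client-owned dogs. The study's authors divided the PPGLs by principal component analysis of these same samples into 7 of group 1 and 12 of group 2, so a difference between these groups is partly built into the division. The tumors came from several institutions and the NAMs from dogs used in research, so tissue cannot be told apart from origin, health or handling. The labels give neither age nor sex. Each library held 18208718 to 35918182 assigned counts, with medians of 25494016.5 in NAMs, 20825468 in group 1 and 22051743 in group 2. Levels are TMM-normalized CPM. A gene with 3 counts or fewer in a library is called at or under the floor, which lay between 0.0779 and 0.164 CPM for NAMs and between 0.0895 and 0.175 for PPGLs. Less RNA in a bulk sample can mean fewer cells or less RNA in each, and these cannot be told apart here.

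Most of these genes were scarce. At least 15 of the 29 libraries were at or under the floor for 7 of the 35, which were KLRD1, KLRB1, CD28, ICOS, CTLA4, TIGIT and EOMES. TIGIT was at or under the floor in 25 libraries, KLRB1 in 24 and CTLA4 in 23, so calls of these genes rest on very few counts. Per kilobase of exon, the order among genes differed between tissues. In NAMs the highest means were those of CD5 at 12.3 CPM per kb and CD40LG at 8.66, far over CD3E at 0.364. In PPGLs CD4 came first at 9.16 CPM per kb, followed by CCL5 at 7.28 and CD2 at 6.17, with CD3E at 1.39, CD5 at 2.24 and CD40LG at 1.97. This PPGL order rested on group 2 samples 9 and 11. Without them the mean of CD4 fell from 15.1 to 5.17 CPM, and the pair held 59% of the PPGL sum of CCL5 and 50.7% of that of CD2. The ratio of CD5 to CD3E per kb had a median of 31.7 in NAMs, 0.889 in group 1 and 3.52 in group 2. The ratio of CD40LG to CD3E had medians of 23.2, 1.66 and 1.03 in the same order, and that of PDCD1 of 1.41, 0.0295 and 0.218. Which cells of the NAMs make the RNA counted as CD5 (chromosome 18, 55217276 to 55235405) and CD40LG (chromosome X, 107010890 to 107023006) was not tested.

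A pair of group 2 tumors, samples 9 and 11, stood apart from all other PPGLs. They were the 2 highest PPGLs for 23 of the 35 genes and held more than 50% of the summed PPGL level for 17 of them, although 2 of 19 samples is 10.5%. The summed level of the 35 genes was 495 CPM in sample 11 and 219.96 CPM in sample 9, and the next PPGL, group 2 sample 4, had 109.9 CPM. The sum ran from 56.4 to 109.8 CPM in NAMs (median 76.7), from 30.9 to 90.5 in group 1 (median 56.6) and from 30.7 to 495 in group 2, where the median of all 12 tumors was 52.8. CD5 alone made up 37.1% of the NAM sum on average, and with CD5 left out but all samples kept the medians were 51.9, 56.1 and 42.4 CPM. Sample 11 was also the highest library for pan-leukocyte, B cell, myeloid, fibroblast and red cell genes. Main results for the 35 genes are therefore given with and without this pair, a choice made after seeing the data. Medians of the fold changes, and results for other lists, are given with it only. The pair held the highest values of many genes, so leaving it out lowers the tumors by design.

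**Figure D1:**
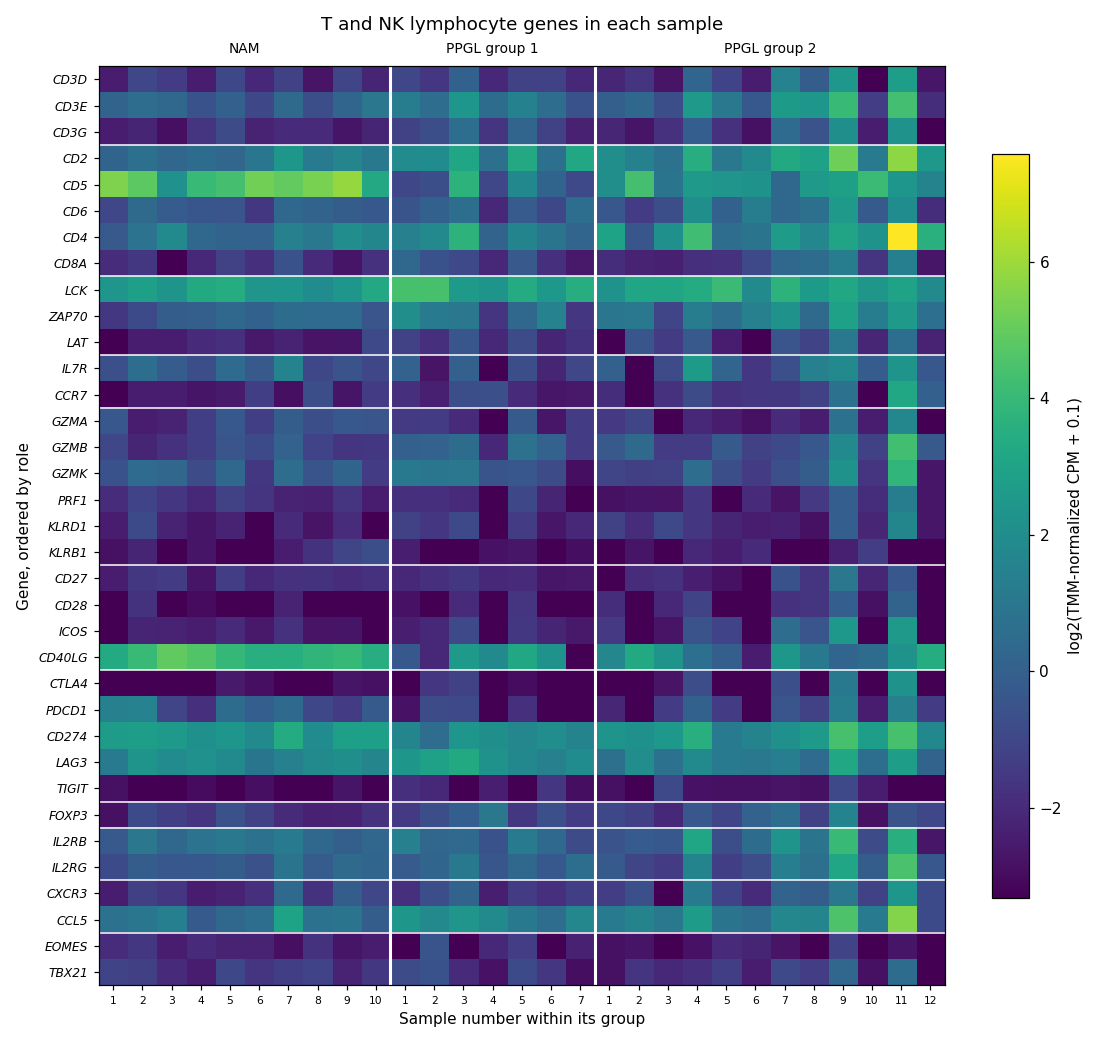
Level of the 35 genes found, as log2 of TMM-normalized CPM plus 0.1, in each of the 29 samples; genes are ordered by role and white lines part roles and groups. Group 2 samples 9 and 11 are bright in most genes, with CD4 at 192 CPM in sample 11, while CD5 and CD40LG are brightest in NAMs.

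PPGLs had more RNA of several T cell genes than NAMs, and less of CD5 and CD40LG. The rise was uneven, because many PPGLs lay among the NAMs and a few lay far over them. The fall of CD40LG was by contrast seen in nearly every tumor. Of the 35 genes, 20 passed the low-count filter. Of these, 8 were higher and 2 were lower at an adjusted p under 0.05, and none of the 20 passed the study's limit of 3 on the log2 fold change. Among all 14766 genes tested, 22.3% were higher and 15.2% lower, and 2.07% were higher and 0.792% lower past that limit as well. More than 1 gene in 3 therefore differed between these tissues, and these counts do not set T and NK genes apart from other genes. A scarce gene passes the filter more easily when some tumors are high, so the counts are not read as a test. The median log2 fold change was 1.11 over the 20 genes and 0.13 over all genes tested. Over the 35 genes without the filter it was 1.37. The filter bears on the median of the 20 genes too, and these medians are not read as a test.

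The CD3 chains carry the signal of the T cell receptor into the cell. CD3E ran from 0.416 to 1.89 CPM in NAMs (median 1.05), from 0.571 to 5.23 in group 1 (median 1.41) and from 0.169 to 19.9 in group 2 (median 1.56). It was higher in PPGLs, with a log2 fold change of 1.93 (standard error 0.63, adjusted p 0.0164). The groups overlapped, with 9 of 19 PPGLs above every NAM, 3 of them in group 1 and 6 in group 2, and 2 below every NAM. Without group 2 samples 9 and 11 the median of group 2 was 1.01 CPM and the log2 fold change over NAMs fell to 1.11 (adjusted p 0.0666), so the difference in CD3E leaned on this pair. CD3D and CD3G did not pass the filter in this comparison, but DESeq2 called them higher (2.21, adjusted p 0.00783, and 2.49, adjusted p 0.00145), as did edgeR without the filter (2.16, adjusted p 0.0447, and 2.43, adjusted p 0.0179). CD3D had medians of 0.203, 0.328 and 0.284 CPM in NAMs, group 1 and group 2, and CD3G of 0.119, 0.350 and 0.192. Both peaked in group 2 samples 11 and 9, at 6.53 and 5.50 CPM for CD3D. The tally of CD3G turned on the filter, because with any of NAMs 1, 2, 3, 4, 6, 7, 8, 9 or 10 left out it passed and was higher, with a log2 fold change of 2.35 to 2.52.

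Among the surface receptors, CD2 binds partner cells and CD4 and CD8A are the coreceptors of the T cell receptor. CD2 ran from 1.05 to 5.30 CPM in NAMs (median 1.69), from 1.51 to 9.48 in group 1 (median 3.91) and from 1.57 to 53.7 in group 2 (median 4.81). It was higher in PPGLs (log2 fold change 2.19, standard error 0.57, adjusted p 0.00356), and 9 of 19 lay above every NAM. With group 2 samples 9 and 11 left out CD2 was still higher, at 1.33 (adjusted p 0.00696), so its rise did not hang on them. CD4 ran from 0.729 to 3.93 CPM in NAMs (median 1.80), from 1.02 to 13.2 in group 1 (median 2.58) and from 0.650 to 192 in group 2 (median 5.65). It was higher in PPGLs (log2 fold change 2.88, standard error 0.85, adjusted p 0.00863), with 8 group 2 tumors and 1 group 1 tumor above every NAM. Its size rested largely on sample 11, since group 2 sample 4 came next at 19.0 CPM and the log2 fold change without sample 11 was 1.37. CD4 stayed higher without samples 9 and 11, at 1.33 (adjusted p 0.0325). CD8A was near the floor, from 0 to 0.572 CPM in NAMs (median 0.168), 0.0671 to 1.18 in group 1 (median 0.428) and 0.0564 to 2.55 in group 2 (median 0.203). It was higher (log2 fold change 1.64, standard error 0.63, adjusted p 0.0391), with 6 of 19 PPGLs above every NAM. The CD8A call was fragile. It was lost without NAM 1, 2, 3, 4, 6, 8, 9 or 10 (adjusted p 0.0524 to 0.0668), and without 15 of the 29 libraries the gene no longer passed the filter. CD6, a receptor that tunes T cell activation, had medians of 0.755, 0.775 and 1.07 CPM and did not pass the threshold (log2 fold change 0.93, adjusted p 0.130).

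The kinases LCK and ZAP70 and the adaptor LAT pass on the T cell receptor signal. ZAP70 ran from 0.243 to 1.33 CPM in NAMs (median 0.909), from 0.222 to 4.03 in group 1 (median 1.90) and from 0.379 to 7.43 in group 2 (median 2.11). It was higher in PPGLs (log2 fold change 1.39, standard error 0.44, adjusted p 0.0138). No other gene of the list had as many tumors above every NAM, 14 of 19, of which 4 were in group 1 and 10 in group 2. Its rise was kept without group 2 samples 9 and 11, at 1.07 (adjusted p 0.0341). The span of ZAP70 overlaps that of ACTR1B on the other strand, which had 56553 counts over all libraries. Whether reads of ACTR1B were counted for ZAP70 was not tested. LCK was the most abundant of the 35 genes in group 1, where its median was 10.5 CPM against 5.21 in NAMs and 8.02 in group 2, but it did not pass the threshold (log2 fold change 0.49, standard error 0.28, adjusted p 0.174). LAT, with medians of 0.0780, 0.201 and 0.330 CPM, did not pass the filter, and was higher with DESeq2 (1.84, adjusted p 0.0114) and without the filter (1.79, adjusted p 0.0465). IL7R and CCR7, receptors of naive and memory T cells, gave no difference past the threshold in the edgeR fit. IL7R had medians of 0.664, 0.403 and 0.864 CPM (log2 fold change 0.44, adjusted p 0.625), and CCR7 did not pass the filter but was higher without it (2.36, adjusted p 0.0482), with 9.12 CPM in group 2 sample 11 and at most 1.60 elsewhere.

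Of the killer cell genes, edgeR called GZMB alone higher, and DESeq2 called KLRD1 too (log2 fold change 1.67, adjusted p 0.0433). GZMB, a granule protease that kills target cells, ran from 0.120 to 0.991 CPM in NAMs (median 0.334), from 0.133 to 1.58 in group 1 (median 0.988) and from 0.273 to 19.5 in group 2 (median 0.693). It was higher in PPGLs (log2 fold change 2.22, standard error 0.71, adjusted p 0.0143), with 6 of 19 above every NAM, 3 in each group. Sample 11 alone raised it strongly, as the log2 fold change without it was 1.13, and without samples 9 and 11 it was 0.84 (adjusted p 0.0783). GZMA, another granule protease, was not tested. It ran from 0.0797 to 0.839 CPM in NAMs (median 0.569), from 0 to 0.745 in group 1 (median 0.263) and from 0 to 3.18 in group 2 (median 0.110), with 6 of 19 PPGLs below every NAM, and it did not pass the filter. GZMK had medians of 0.824, 0.686 and 0.443 CPM with a peak of 14.5 in group 2, and it did not pass the threshold (log2 fold change 1.03, adjusted p 0.241). Leaving out 1 library took its log2 fold change as low as 0.22. PRF1, the pore protein that lets granzymes in, and the NK receptors KLRD1 and KLRB1 did not pass the filter. PRF1 medians were 0.185, 0.143 and 0.106 CPM. KLRD1 reached 3.08 CPM in group 2 and at most 0.438 elsewhere, and KLRB1 was at or under the floor in all of group 1.

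Of the costimulatory receptors CD27, CD28 and ICOS none passed the filter of the edgeR fit, but ICOS was higher with DESeq2 (3.32, adjusted p 0.00222) and without the filter (3.20, adjusted p 0.0226). ICOS, which marks activated T cells, had medians of 0.0736 CPM in NAMs, 0.117 in group 1 and 0.302 in group 2, and 9 of 19 PPGLs lay above every NAM, with 5.94 CPM at the top. CD27 had medians of 0.194, 0.133 and 0.144 CPM, and CD28 was 0 in most NAMs. No inhibitory receptor passed as higher in the edgeR fit, which did not test CTLA4 and TIGIT. Without the filter both were higher in PPGLs, and TIGIT was with DESeq2 as well, on very few counts. CTLA4 was at or under the floor in all 10 NAMs, with a median of 0 in both tumor groups and highest values of 0.333 CPM in group 1 and 4.72 in group 2, so no fold is given. TIGIT was at or under the floor in all NAMs too and reached 0.427 CPM at most. PDCD1 ran from 0.182 to 2.75 CPM in NAMs (median 0.807), from 0 to 0.471 in group 1 (median 0.0438) and from 0 to 2.60 in group 2 (median 0.283). PDCD1 did not pass the threshold (log2 fold change -1.19, standard error 0.70, adjusted p 0.184), although 9 of 19 PPGLs lay below every NAM. Without group 2 samples 9 and 11, which held 2 high values, it was called lower at -2.14 (adjusted p 0.00686), a call shaped by that choice, and with a fit of all 3 groups at -1.72 (adjusted p 0.0448). CD274, the ligand of PDCD1, ran from 3.60 to 10.3 CPM in NAMs (median 6.03), from 1.41 to 5.19 in group 1 (median 3.22) and from 2.18 to 21.3 in group 2 (median 5.18). Its log2 fold change was 0.04 (standard error 0.35, adjusted p 0.939), with 3 PPGLs above and 7 below every NAM. LAG3 had medians of 3.55, 4.57 and 2.02 CPM and did not pass the threshold (log2 fold change 0.19, adjusted p 0.677).

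FOXP3 directs regulatory T cells. It ran from 0.0405 to 0.557 CPM in NAMs (median 0.202), from 0.239 to 1.91 in group 1 (median 0.518) and from 0.0421 to 2.92 in group 2 (median 0.408). It was higher in PPGLs (log2 fold change 1.46, standard error 0.50, adjusted p 0.0204), with 7 of 19 above every NAM, and it stayed higher without group 2 samples 9 and 11, at 1.18 (adjusted p 0.0395). The rise of FOXP3 thus did not hang on this pair. CCL5, a chemokine that draws T cells, ran from 0.753 to 7.97 CPM in NAMs (median 1.58), from 1.40 to 5.34 in group 1 (median 3.39) and from 0.451 to 47.5 in group 2 (median 2.49). It was higher (log2 fold change 1.55, standard error 0.61, adjusted p 0.0461), yet only 2 tumors lay above every NAM. That call was lost without NAM 1, 2, 3, 4, 5, 6, 8, 9 or 10, group 1 sample 1 or group 2 sample 4, 9 or 11, with adjusted p of 0.0503 to 0.132 and a log2 fold change of 0.90 without sample 11, and DESeq2 did not give it (0.86, adjusted p 0.113). IL2RG, a chain shared by cytokine receptors, had a log2 fold change of 1.52 (adjusted p 0.0560). It became higher, at 1.57 to 1.59, without group 1 sample 4 or 6 or group 2 sample 2, 3, 5, 6, 10 or 12. Leaving out 1 library could also lower the IL2RG estimate, to 0.74 at the least. The receptor IL2RB (1.03, adjusted p 0.183) and the chemokine receptor CXCR3 (1.19, adjusted p 0.148) did not pass the threshold. The factors EOMES and TBX21 of cytotoxic cells did not pass the filter, with NAM medians of 0.108 and 0.271 CPM and PPGL values of at most 0.612 and 1.33.

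CD5 and CD40LG fell. CD5, a receptor that dampens the T cell receptor signal, ran from 4.42 to 58.2 CPM in NAMs (median 29.8), from 0.394 to 13.2 in group 1 (median 0.518) and from 1.20 to 20.8 in group 2 (median 5.15). It was lower in PPGLs (log2 fold change -2.46, standard error 0.52, adjusted p 0.000585), and 10 of 19 lay below every NAM, 6 of 7 in group 1 and 4 of 12 in group 2. CD40LG, the signal by which helper T cells activate B cells, ran from 10.2 to 30.1 CPM in NAMs (median 14.5), from 0 to 8.89 in group 1 (median 3.64) and from 0.0776 to 10.7 in group 2 (median 2.59). It was lower (log2 fold change -2.14, standard error 0.54, adjusted p 0.00268), with 18 of 19 PPGLs below every NAM and group 2 sample 12, at 10.7 CPM, as the exception. Both stayed lower when samples 9 and 11 were left out, at -2.49 for CD5 and -2.10 for CD40LG, and both fell while CD3E did not. Counts of higher genes moved with the tool. DESeq2 gave 13 higher and 2 lower, a Mann-Whitney U-test gave 3 higher (CD2, ZAP70 and FOXP3) and 3 lower (CD5, PDCD1 and CD40LG), and leaving out samples 9 and 11 left 4 higher, CD2, CD4, ZAP70 and FOXP3. The share over all genes is not given for these settings. Whether the listed genes moved apart from other genes is therefore not shown.

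**Figure D2:**
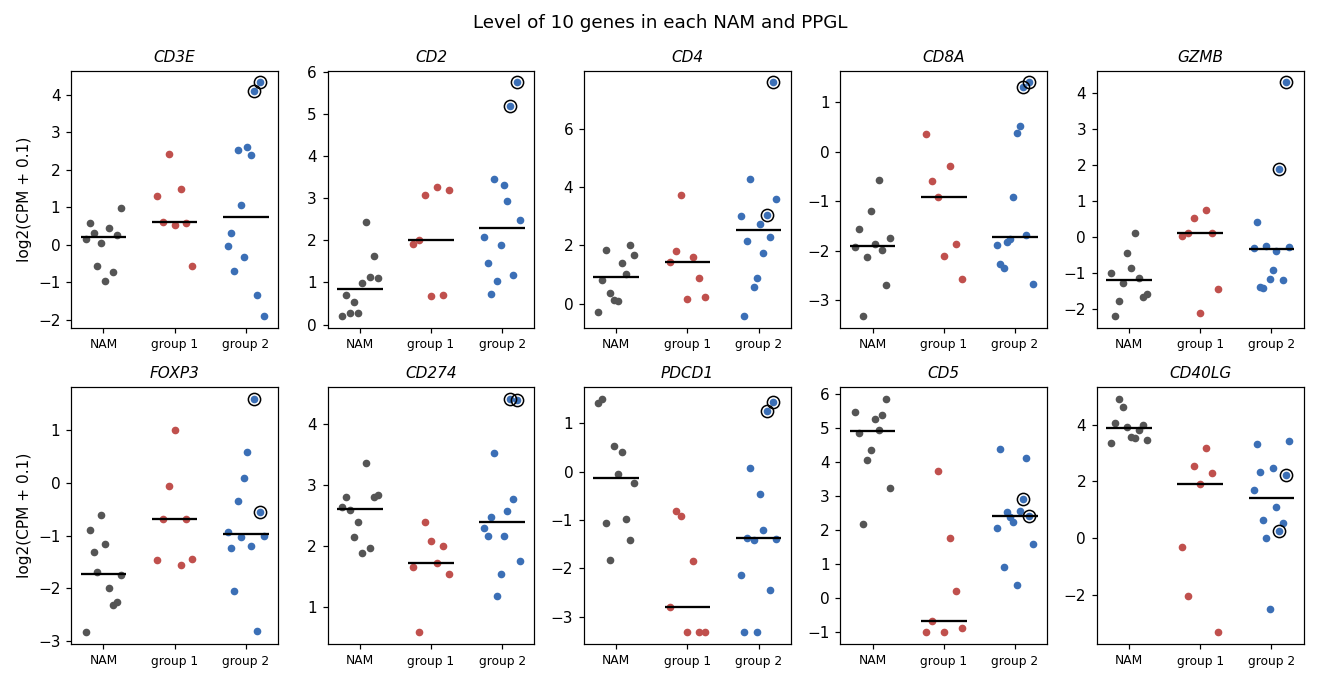
Level of 10 genes as log2 of CPM plus 0.1, each panel with its own axis; dots are samples of NAMs (gray), group 1 (red) and group 2 (blue), spread sideways only to part them, black lines are medians and black rings mark group 2 samples 9 and 11. CD5 and CD40LG lie lower in the tumors, with CD40LG medians of 14.5, 3.64 and 2.59 CPM, and the ringed tumors lead for CD3E, at 19.9 CPM.

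Against the same NAMs, the tumor groups differed in how many genes passed. Both were set against NAMs in 1 fit of 3 groups, so these comparisons share their NAMs and their overlap is not used as evidence. Group 1 gave no higher gene and 3 lower genes among 23 tested, while among all 15201 genes tested 21% were higher and 14.1% lower. With no higher gene in edgeR, 4 genes (CD3G, CD2, LCK and FOXP3) had an unadjusted p under 0.05 and a higher level, DESeq2 gave 0 after adjustment and 6 before it, and the Mann-Whitney U-test gave 2 (CD3G and LAT) and 6. The median log2 fold change of group 1 was 0.63 over the 23 genes and 0.13 over all genes. Over the 35 genes without the filter it was 0.61, and these medians are not read as a test. Some estimates of group 1 thus lay over NAMs, and in this fit none of these passed the threshold. Others lay under NAMs, and 3 of them passed. The lack of higher calls does not show that the levels were equal.

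In group 1, CD5 was lower than in NAMs (log2 fold change -3.41, standard error 0.75, adjusted p 0.000831), and all tumors but sample 3 lay below every NAM. Sample 3 had 13.2 CPM of CD5 against 3.28 in the next tumor of its group, and without it the log2 fold change was -4.83. PDCD1 was lower (-2.72, standard error 0.97, adjusted p 0.0295), with 5 of 7 below every NAM. The PDCD1 call was lost without NAM 1 or 2 or group 1 sample 1, 4, 6 or 7, at adjusted p of 0.0516 to 0.0550. CD40LG was lower (-2.23, standard error 0.77, adjusted p 0.0243) in 7 of 7. CD274 was called lower too by the Mann-Whitney U-test (adjusted p 0.0232) and by a fit of only these 2 groups (-0.82, adjusted p 0.0279), though not by the fit of 3 groups. Some genes short of the threshold passed it when 1 library was left out. Without NAM 5, which had the highest CD3G of the NAMs at 0.483 CPM, CD3G (2.26, adjusted p 0.0486) and FOXP3 (1.59, adjusted p 0.0457) were higher, and FOXP3 was higher without group 2 sample 9 too (1.37, adjusted p 0.0449). With another library left out the FOXP3 estimate fell to 0.81. CD2 was higher without NAM 7 (1.67, adjusted p 0.0433), where it had 5.30 CPM, or without group 2 sample 11 (1.38, adjusted p 0.0470). LCK was higher without group 1 sample 3, 4 or 6, at 0.88, 0.90 and 0.89 (adjusted p 0.0413 to 0.0495).

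Other values of group 1 against NAMs lay short of the threshold in the fit of 3 groups. CD3E had a log2 fold change of 1.06 (standard error 0.70, adjusted p 0.246), with 3 of 7 above every NAM. CD2 had 1.38 (adjusted p 0.0825), CD3G 1.88 (0.0862), FOXP3 1.37 (0.0718), LCK 0.77 (0.0753) and CD274 -0.83 (0.112). These estimates were positive for 5 of the 6 genes. Of the other genes tested, CD5, PDCD1, CD40LG, IL7R, GZMA, IL2RB and CXCR3 had negative ones. CD4 had 0.85 (standard error 0.83, adjusted p 0.453), CD8A 1.18 (0.73, 0.217), GZMB 1.16 (0.77, 0.250), GZMA -0.91 (0.88, 0.442) and ZAP70 0.95 (0.51, 0.154). Leaving out 1 library took CD4 as low as 0.05. LAT (1.27), IL7R (-1.18), GZMK (0.40), LAG3 (0.63), IL2RG (0.34), IL2RB (-0.12), CD6 (0.09), CXCR3 (-0.01) and CCL5 (0.66) did not pass either.

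Group 2 gave 11 higher and 2 lower genes among 23 tested, while among all genes tested 18.4% were higher and 14.5% lower. The higher genes were CD3E, CD3G, CD2, CD4, CD8A, ZAP70, LAT, GZMB, FOXP3, IL2RG and CCL5, but most of them rested on samples 9 and 11. The median log2 fold change was 1.51 over the 23 genes and 0.09 over all genes. Over the 35 genes without the filter it was 1.57. These medians hold samples 9 and 11 and are not read as a test. CD2 had the smallest adjusted p of the higher genes, 0.00179 (log2 fold change 2.50, standard error 0.59), with 6 of 12 above every NAM. CD4 followed (3.40, standard error 0.81, adjusted p 0.00213), with 8 of 12 above every NAM, and without sample 11 it was 1.62. GZMB (2.59, standard error 0.72, adjusted p 0.00693) had 3 of 12 above every NAM. CD3E (2.26, standard error 0.65, adjusted p 0.00841) had 6 of 12. ZAP70 (1.59, standard error 0.47, adjusted p 0.00966) had 10 of 12, the most of the 35 genes.

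Among the other higher genes of group 2, CD3G (2.71, standard error 0.80, adjusted p 0.00977) stayed higher whichever single library was left out. IL2RG (1.92, standard error 0.63, adjusted p 0.0201), LAT (2.05, standard error 0.68, adjusted p 0.0218) and CCL5 (1.89, standard error 0.63, adjusted p 0.0225) each depended on 1 tumor. Without sample 11 the calls of IL2RG (0.94, adjusted p 0.138), CCL5 (1.03, adjusted p 0.1245) and GZMB (1.10, adjusted p 0.0765) were lost, and without sample 9 that of LAT (1.62, adjusted p 0.0568). FOXP3 (1.51, standard error 0.54, adjusted p 0.0309), with 5 of 12 above every NAM, was lost without NAM 1, 7, 8 or 9 or group 2 sample 7 or 9 (adjusted p 0.0517 to 0.0999). CD8A (1.84, standard error 0.67, adjusted p 0.0338), with 4 of 12 above, was lost without NAM 1, 4, 6, 8 or 9 or group 2 sample 8, 9 or 11 (adjusted p 0.0519 to 0.0754).

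With samples 9 and 11 both left out, only CD2 (1.28, adjusted p 0.0190), CD4 (1.58, adjusted p 0.0217) and ZAP70 (1.14, adjusted p 0.0460) were higher in group 2. CD3E (1.14, adjusted p 0.0981) and CD3G (1.14, adjusted p 0.167) kept a positive estimate, while IL2RG (0.24) and CCL5 (0.23) came near 0. The same 3 genes were the higher ones of the Mann-Whitney U-test on all 12 tumors. GZMA turned with this choice, from 0.01 (standard error 0.74, adjusted p 0.995) to lower at -1.997 (adjusted p 0.0114), and PDCD1 from -0.72 (standard error 0.74, adjusted p 0.473) to lower at -1.85 (adjusted p 0.0465). These samples were the 2 highest PPGLs for both genes, so their lower calls follow in part from the choice and are not read as falls. CD5 (-2.11, standard error 0.57, adjusted p 0.00578, 4 of 12 below every NAM) and CD40LG (-2.09, standard error 0.63, adjusted p 0.0115, 11 of 12 below) were lower with this pair and, at -2.09 and -2.02, without it.

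Genes short of the threshold in group 2 could also gain it. CD6 (1.25, standard error 0.49, adjusted p 0.0509) passed without NAM 2, group 1 sample 4 or 7, or group 2 sample 1, 2, 3, 5, 10 or 12 (1.23 to 1.37). CXCR3 (1.59, adjusted p 0.0609) passed without NAM 7 or 9 or group 2 sample 3 or 6 (1.68 to 2.04), and IL2RB (1.43, adjusted p 0.0745) without group 2 sample 12 (1.55). Leaving out 1 library could also lower the estimates, that of CXCR3 to 1.01 and that of IL2RB to 0.93. Where a left-out library let them through the filter, CD3D (2.55 to 2.78), CCR7 (2.85 to 2.89) and ICOS (3.75 to 3.79) were higher. That happened for CD3D without NAM 8 or 9, any group 1 sample or group 2 sample 1, 2, 3 or 12, for CCR7 without group 1 sample 1, 2, 5, 6 or 7, and for ICOS without group 1 sample 1, 2 or 6. These scarce genes lie at the edge of what the counts can show. CD274 (0.37, standard error 0.34, adjusted p 0.425), LCK (0.29), LAG3 (-0.16), GZMK (1.29) and IL7R (0.92) did not pass. Leaving out 1 library took GZMK as low as 0.09. DESeq2 gave 17 higher genes where edgeR gave 11, and the Mann-Whitney U-test 3. The 17 held CD6, IL2RB and CXCR3 but neither GZMB (1.04, adjusted p 0.0670) nor CCL5 (0.96, adjusted p 0.108). For these tools the share over all genes is not given, so the counts are not read as a result about these genes.

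**Figure D3:**
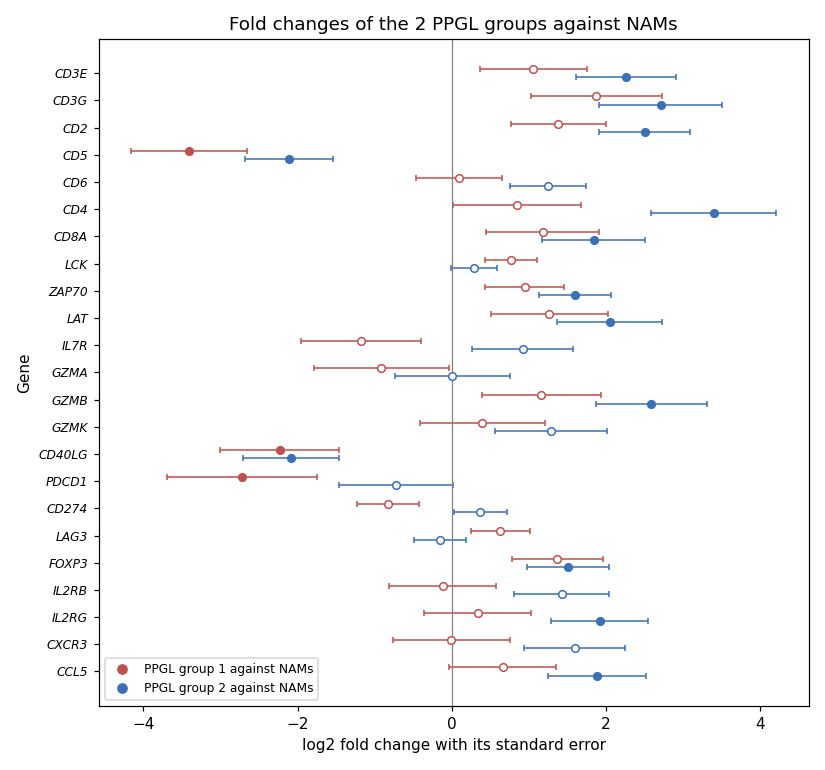
Log2 fold change of group 1 (red) and group 2 (blue) against NAMs for the 23 genes tested, with bars of 1 standard error; filled circles passed an adjusted p of 0.05, open circles did not, and the vertical line marks 0. CD5, at -3.41 and -2.11, and CD40LG lie left of the line in both groups, while all filled circles right of it belong to group 2.

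Between the tumor groups no gene of the list passed the threshold of 0.1. Of 21 tested, edgeR gave 0 higher and 0 lower in group 1, and at an unadjusted p under 0.05 it gave 0 higher and 3 lower (CD4, IL7R and CD274). DESeq2 gave 0 higher and 3 lower after adjustment (IL7R, ICOS and CD274), and the Mann-Whitney U-test 0 and 0, or 1 and 2 before adjustment. Among all 14666 genes tested, 3.97% were higher and 2.95% lower. The median log2 fold change was -1.16 over the 21 genes and 0.04 over all genes, but the negative sign leaned on group 2 samples 9 and 11. Without them the estimate of CD3E was -0.07, and those of GZMB (0.63), GZMK (1.14), CCL5 (0.44), CD2 (0.11) and IL2RG (0.10) turned positive. Medians of all samples were higher in group 1 for several genes, among them CD3D, CD3G, CD8A, LCK, GZMA, GZMB, GZMK, LAG3, FOXP3, CCL5 and CD40LG. The groups overlapped for every gene. No direction is therefore read from these estimates.

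CD4 had the largest estimate of group 1 against group 2 (log2 fold change -2.56, standard error 1.04, adjusted p 0.182), and without group 2 samples 9 and 11 it shrank to -0.72. CD274 had -1.20 (standard error 0.46, adjusted p 0.154) and IL7R -2.09 (0.90, 0.207). A fit of all 3 groups gave CD4 (-2.55, adjusted p 0.0659), CD274 (-1.20, 0.0503) and IL7R (-2.10, 0.0847) as lower, so these lie close to the threshold. CD5 had -1.31 (standard error 0.74, adjusted p 0.341), and without group 1 sample 3, at 13.2 CPM, it was lower at -2.71 (adjusted p 0.0404). LAG3 (0.79, standard error 0.43, adjusted p 0.320) was higher at 1.33 (adjusted p 0.0410) once group 2 samples 9 and 11 were left out. CD3E (-1.20, standard error 0.82, adjusted p 0.443), CD2 (-1.12, 0.402), CD8A (-0.64, 0.690), GZMB (-1.43, 0.400), FOXP3 (-0.13, 0.931) and CD40LG (-0.14, 0.948) did not pass. Leaving out 1 library took GZMB as far as 0.08 and GZMK as far as 0.33. FOXP3 and CD40LG were estimated nearly level between the groups with all samples kept. With 1 library left out FOXP3 ran from -0.68 to 0.33 and CD40LG from -0.60 to 0.11. CD3G (-0.83), ZAP70 (-0.62), LCK (0.50), CD6 (-1.16), LAT (-0.78), GZMK (-0.89), IL2RB (-1.53), IL2RG (-1.59), CXCR3 (-1.60) and CCL5 (-1.23) did not pass either.

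Across the 19 PPGLs many genes followed CD3E from tumor to tumor. Of 42 genes correlated with it, 34 were of the list, and 28 of the 34 had a positive Pearson r with an adjusted p under 0.05, 21 of them also by Spearman rho, and 0 a negative one. Only these 42 genes were correlated, with no share over all genes. The counts therefore do not set T and NK genes apart from other genes. The closest were CD3D (r 0.959, rho 0.967) and CD3G (r 0.935, rho 0.933), then ICOS (r 0.906, rho 0.862) and IL2RB (r 0.895, rho 0.861). Each had a permutation p of 1e-05, the smallest they can give, and an adjusted p of 8.4e-05. The CD3 chains of 1 receptor thus moved together. GZMK had r 0.860 and rho 0.872 (adjusted p 0.00012 for r), CCL5 had r 0.827 and rho 0.686, and CD8A r 0.806 and rho 0.796. CD4 followed less closely (r 0.499, rho 0.393, adjusted p 0.0399 and 0.133), as did FOXP3 (r 0.548, rho 0.493, adjusted p 0.0225 and 0.0537) and CD274 (r 0.611, rho 0.363, adjusted p 0.00977 and 0.160). CD5 (r 0.163), CD40LG (r 0.129), LCK (r 0.318), EOMES (r 0.222), KLRB1 (r -0.13) and TIGIT (r 0.014) did not follow it past the threshold.

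The correlations leaned on group 2 samples 9 and 11, the 2 farthest from the median of CD3E. Without them 14 of the 34 genes stayed positive by r, and 9 by both measures, which were CD3D (r 0.931), CD3G (0.883), ICOS (0.835), IL2RB (0.820), GZMK (0.757), TBX21 (0.679), CD8A (0.668), LAT (0.621) and IL2RG (0.613). Within the 12 tumors of group 2 there were 26 (median r 0.768). Within the 7 of group 1 none passed, although the median r was 0.568, so the lack of calls in so few tumors does not show a lack of covariation. The median r over the 34 genes was 0.678, and 0.466 without that pair. Of the 8 other genes, the leukocyte gene PTPRC (r 0.702, rho 0.549, permutation p 0.00063 and 0.0162, adjusted 0.00165 and 0.0324) and the macrophage gene CD163 (r 0.606, rho 0.537, permutation p 0.00573 and 0.0191, adjusted 0.0099 and 0.0365) followed CD3E, but r was 0.402 and 0.287 without the pair. MS4A1 (r 0.196), S100A8 (0.261), PECAM1 (0.471), CYP11A1 (-0.15), TH (-0.34) and HBM (0.313) did not pass. Leaving out the 2 most extreme values of CD3E lowers r in general, and the cause of these correlations was not tested.

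Further correlations were chosen after seeing the data, to ask where CD5, CD40LG and PDCD1 vary. Among 18 tests against the cortex gene CYP11A1 and the catecholamine gene TH, 1 passed. In NAMs, CD5 fell as TH rose (r -0.957, rho -0.903, permutation p 0.00015 and 0.00085, adjusted 0.0027 and 0.0153), and r was -0.929 without NAMs 3 and 4. NAM 3 had the most TH, 5970.5 CPM, and the least CD5, 4.42 CPM. NAM 9, with the most CD5 at 58.2 CPM, was among the NAMs with little TH. CD40LG with TH in NAMs had the opposite sign and did not pass (r 0.724, rho 0.491, adjusted p 0.116 and 0.558). Its r was -0.081 without NAMs 3 and 4. PDCD1 with TH in NAMs did not pass either (r -0.384, rho -0.309, adjusted p 0.471 and 0.648). In tumors CD5 with TH did not pass, at r -0.805 and rho -0.357 in group 1 (adjusted p 0.207 and 0.666) and r 0.470 and rho 0.301 in group 2 (adjusted p 0.409 and 0.648). Without group 1 samples 3 and 5 the r of group 1 turned to 0.813. CD5 with CYP11A1 did not pass in NAMs (r 0.565, rho 0.758, adjusted p 0.307 and 0.140) or in group 2 (r 0.747, rho 0.552, adjusted p 0.0589 and 0.303). Nor did it pass in group 1, where the sign was negative (r -0.465, rho -0.288, adjusted p 0.471 and 0.675). Without group 2 samples 7 and 10 the r of group 2 fell to 0.419, and without NAMs 4 and 5 that of NAMs was 0.726. CD4 in PPGLs followed CSF3R, a neutrophil receptor (r 0.890, rho 0.826, permutation p 2e-05 and 3e-05 in a test of 1 pair), and r was 0.769 without group 2 sample 11 and group 1 sample 7. Apart from CD3E, CSF3R was the only gene set against CD4, and both CD4 and CSF3R peaked in group 2 sample 11. The r of CD4 with CD3E and that with CSF3R were not tested against each other. Which cells made the CD4 RNA was not tested.

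Other T and NK genes, 51 found of 53 sought with 30 tested against NAMs, gave 5 higher and 2 lower in PPGLs. Among all genes tested 22.3% were higher and 15.2% lower. The counts of this list and of the ligands below do not set them apart from other genes and are not read as tests. The higher ones included RASGRP1 (log2 fold change 3.05, adjusted p 0.00309), SLA2 (1.53, 0.00309) and CD226 (1.39, 0.00447), and the lower ones were LEF1 (-1.84, 0.000389) and TNFRSF18 (-1.62, 0.000506). Of 32 tested, 4 were higher and 2 lower in group 1 than in NAMs, beside 21% and 14.1% of all genes. In group 2 there were 7 and 2, beside 18.4% and 14.5%. Between the groups, of 27 tested, RASGRP1 was higher (2.41, adjusted p 0.0844) and LEF1 lower (-1.52, 0.0615) in group 1. Among all genes 3.97% were higher and 2.95% lower there. RASGRP1 had 809 and 485 counts in group 1 samples 5 and 3, against at most 121 in the other group 1 tumors. The sums were 264 to 766 CPM in NAMs, 227 to 1060.3 in group 1 and 105 to 423 in group 2, led by TNFRSF18 in NAMs and group 2 and by GATA3 in group 1. GATA3 is also a factor of the sympathoadrenal lineage, so this sum does not measure T cells. NCR1, a gene of NK cells, reached 0.305 CPM at most outside group 2 sample 11, which had 1.27. Ligands and partners of the listed genes, 19 of 22 found and 16 tested, gave 4 higher and 1 lower in PPGLs. IL7 (1.68, adjusted p 0.00443), CCL4 (2.33, 0.0121) and CCL3 (2.47, 0.0273) were higher and NECTIN2, the most abundant, was lower (-1.41). Group 1 had less CD80 (-2.33, adjusted p 0.0768) and CXCL10 (-3.95, 0.0838) than group 2. Against NAMs, ligands gave 0 higher and 3 lower of 16 tested in group 1, and 3 and 1 of 16 in group 2. The shares over all genes are those given above for each comparison. Their sums were 223 to 561 CPM in NAMs, 101 to 200.5 in group 1 and 129 to 555 in group 2.

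Genes of other cells give the setting for the T cell values, and their part was not tested. Among all genes tested in PPGLs against NAMs 22.3% were higher and 15.2% lower, and the counts of these lists are not read as tests. Pan-leukocyte genes, 10 found and 9 tested, gave 0 higher and 0 lower in every comparison, with sums of 94 to 270 CPM in NAMs, 122 to 211 in group 1 and 98.5 to 1073.4 in group 2, led by LCP1. Group 2 samples 11 and 9 were the highest libraries for these genes too, and no test set them against the T cell genes. B and plasma cell genes, 15 of 16 found and 6 tested, gave 1 higher in PPGLs, JCHAIN (1.89), and 5 higher without the filter. Group 2 samples 9 and 11 held 62.2% of the PPGL sum of JCHAIN. CD79A led the sums of the B and plasma cell genes, which were 361 to 681, 319 to 1290.3 and 242 to 2012 CPM. MS4A1 was at or under the floor in all NAMs. Macrophage and neutrophil genes, 18 of 21 found and 16 tested, gave 4 higher and 2 lower. The higher ones were MPO, S100A12 (4.57), CSF3R (3.87) and S100A8 (2.70), and the lower ones were MRC1 (-1.30) and CSF1R (-0.72). MPO was at or under the floor in all NAMs, so no fold is given for it. Group 2 samples 9 and 11 held 60% of the PPGL sum of S100A12. CSF3R rested mostly on group 2 sample 11, at 447.9 CPM against 47.4 in the next tumor, and no group 1 tumor lay above every NAM. Their sums were 584 to 1703, 468 to 1673 and 484 to 3822 CPM, led by C1QC in NAMs and S100A8 in PPGLs. Dendritic cell genes, 6 of 8 found and 3 tested, gave none in PPGLs, with sums of 7.44 to 16.8, 4.66 to 31.7 and 4.27 to 41.5 CPM led by FLT3. Mast cell genes, 4 of 5 found, gave none in PPGLs and 1 higher in group 1 than in group 2, HDC (3.91). That value rested on group 1 sample 5, at 39.1 CPM, since no other group 1 tumor had more than 0.666. Mast cell sums were 2.78 to 6.60, 0.403 to 46.8 and 3.32 to 28.0 CPM, led by CPA3 in NAMs and group 2 and by HDC in group 1.

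Red cell genes, 6 of 8 found and 3 tested, gave 3 higher in PPGLs, HBM, ALAS2 (4.79) and AHSP (2.51). No fold is given for HBM because of its level in NAMs. Without the filter all 6 red cell genes were higher. Their sums were 0.0779 to 0.839 CPM in NAMs, 0.201 to 28.6 in group 1 and 0.546 to 65.8 in group 2, led by AHSP, HBM and ALAS2 in this order, and HBM, SLC4A1 and EPB42 were at or under the floor in all NAMs. Adrenal cortex genes, 9 of 11 found, gave 0 higher and 8 lower in PPGLs, with sums of 13089.8 to 63915.7, 35.2 to 1148.8 and 218 to 31927.5 CPM, led by STAR in group 1 and CYP17A1 elsewhere. RNA of cortex genes was thus high in NAMs and far lower in group 1, where STAR made up 83.5% of the sum. Whether this reflects the amount of cortex tissue was not tested. Chromaffin cell genes, 10 of 11 found, gave 2 higher, PHOX2A (2.17) and SYP (0.98), and 1 lower, PNMT (-1.93), led by CHGB with sums of 16311 to 93027, 7749.8 to 118300 and 19046 to 99075 CPM. TH was low in group 1 samples 3 (10.8 CPM) and 5 (2.15) and group 2 sample 7 (32.3). Endothelial genes, 7 found, gave 0 higher and 3 lower (VWF, KDR and TIE1), with sums of 320.2 to 944, 115 to 922 and 203 to 765 CPM, led by VWF in NAMs and PECAM1 in tumors. Fibroblast genes, 7 found, gave 4 higher, COL1A1 (3.72), COL3A1 (3.09), LUM (2.43) and COL1A2 (1.97), with sums of 305 to 736, 188 to 2413 and 430 to 25558 CPM, led by COL1A2 in NAMs and COL3A1 in tumors. Group 2 sample 11 had 45825 counts of LUM and 146602 of COL1A1, against at most 3901 and 46469 in any other tumor. Much of the PPGL level of LUM and COL1A1 thus rested on it. RNA of marker genes of several cell types thus differed between NAMs and PPGLs. Whether tissue make-up differed was not tested, and it was not adjusted for in the T cell comparisons.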

How the data were processed

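The table holds counts per gene that the authors deposited, from stranded libraries (TruSeq) aligned with STAR 2.4.2a to CanFam3.1 by the paper. The submitters' notes name FastQC, STAR, Picard and HTSeq without roles, and the table has the column layout of featureCounts. The strand setting of the counting and the handling of reads with several positions are not given in the sources used here. Genes were found by name among 30951 genes, 18239 of them named. The comparisons were tested with edgeR 4.0.16 (quasi-likelihood F-test, TMM, filterByExpr) in R 4.3.3, with p adjusted over all genes tested (Benjamini-Hochberg) and thresholds of 0.05, or 0.1 between the tumor groups. PPGLs against NAMs and the tumor groups were 2-group fits, and each tumor group against NAMs came from a fit of 3 groups. Alternatives were DESeq2 1.42.0, its size factors, a Mann-Whitney U-test, no filter, at least 1 CPM, a prior count of 2, other groupings of the fit, the sample number as a block and every library left out in turn. Leaving out group 2 samples 9 and 11, or group 1 samples 3, 5 and 7 (low in chromaffin markers), was chosen after seeing the data. Correlations used log2 CPM and 100000 permutations in Python 3.11.15 with numpy 2.4.6 and scipy 1.17.1, and plots used matplotlib 3.10.9. Genes of the list and of the other lists were chosen with earlier results of these data known. Members with the smallest adjusted p, the most abundant gene and a few fixed genes are named with values. The code was tested on simulated data. Raw reads were not analysed here, and the values of 1 gene are not reported here.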

Additional observations from a re-analysis of the deposited data

Results flagged for a closer look

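A Dixon test for a single far value in NAMs and group 1 marked 12 of 69 gene groups, and about 1 in 20 would be marked by chance. NAM 7 was marked for CD2 (5.30 CPM, next 3.00), IL7R (2.86, next 1.43), CD274 (10.3, next 7.04) and CCL5 (7.97, next 2.52). Group 1 sample 3 was marked for CD3D (0.951, next 0.394), CD5 (13.2, next 3.28) and CD4 (13.2, next 3.44). The others were CD3G in NAM 5 (0.483, next 0.208), LAT in NAM 10 (0.433, next 0.186), KLRD1 in NAM 2 (0.438, next 0.164), GZMA in group 1 sample 5 (0.745, next 0.282) and FOXP3 in group 1 sample 4 (1.91, next 0.856). The cause was not tested, and all samples were kept.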

How the results depend on the processing

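Higher genes in PPGLs against NAMs numbered 8, and 13 with DESeq2, 3 with the Mann-Whitney U-test and 13 without a filter. CD8A and CCL5 were not among those found without a filter. There were 5 at 1 CPM or more, 1 with the replicate block and 4 without group 2 samples 9 and 11. With 1 library left out there were 6 to 9. Shares over all genes are not given for the other settings, here or for the counts below. These counts therefore do not show whether the listed genes moved apart from other genes. Between the tumor groups there were 0 higher and 0 lower, but 3 lower with DESeq2 and with all 3 groups in the fit, 0 to 1 with 1 library left out, 1 higher without group 2 samples 9 and 11, and 1 lower without group 1 samples 3, 5 and 7. Group 1 against NAMs gave 0 higher, but 2 with the Mann-Whitney U-test, 1 with the block, 2 with only 2 groups in the fit and 0 to 2 with 1 library left out. Group 2 against NAMs gave 11 higher, but 17 with DESeq2, 3 with the Mann-Whitney U-test, 15 without a filter and 7 at 1 CPM or more. It gave 1 with the block, 7 with only 2 groups in the fit and 7 to 14 with 1 library left out. Without samples 9 and 11 it gave 3 higher and 4 lower against 2, and GZMA turned to -1.997. Over a part of the tested genes 403, 139, 323 and 546 values kept their call in these 4 comparisons. In that part 41, 0, 8 and 46 grew weaker, 3, 3, 5 and 1 stronger, and 1 turned. Calls gained by other genes with 1 library left out, such as IL2RG, CD6, CXCR3 and IL2RB, are not in these counts. Genes positively correlated with CD3E numbered 28, 14 without the 2 farthest samples and 0 within group 1. The NAM median sum was 76.7 CPM, or 51.9 without CD5. Sample numbers did not pair samples, since 0 of 7, 2 of 10 and 0 of 7 correlated best with their own number. The block was this number, and numbers 11 and 12 occur in group 2 alone. The block therefore takes up the whole level of those 2 tumors, and the counts with it are not read for or against a call. The cause of the other changes with the processing was not tested.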

Other observations

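The NAMs came from healthy research dogs and the PPGLs from client-owned dogs, so no difference between them can be assigned to the tumor alone. The tumor groups were drawn from the same data that were tested. Genes near the floor, such as CD8A, CD3G and LAT, rest on few counts per library. By whole gene span, introns included, CD3D overlaps CD3G, ZAP70 overlaps ACTR1B, LAT overlaps SPNS1, CD27 overlaps VAMP1 and TAPBPL, and IL2RG overlaps MED12. Whether their exons overlap was not checked. LAT and SPNS1 lie on the same strand, as do CD27 and TAPBPL, so no strand setting would part reads of any exon they share. For the other pairs the strand setting of the counting is not given in the sources used here. The counts of all these genes are therefore uncertain. No protein or cell was counted, and which cells make CD5 and CD40LG RNA in NAMs was not tested.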
